A study of Homo sapiens with 12 samples.

Results

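IL4I1, the enzymes of tryptophan breakdown and the AHR pathway were examined as 10 genes, taken by gene name from the non-control probes of the arrays. IL4I1, IDO1, TDO2, KYNU, KMO, WARS, AHR, CYP1A1, CYP1B1 and TIPARP were covered by 14 of 34127 probes, out of 25992 named genes. The genes were selected on their log2 differences from control under IL-1β and empagliflozin (Empa), which were known at that time, so those differences are given as a description, without a test. The members sit on different chromosomes apart from KYNU and CYP1B1, which both lie on chromosome 2.

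Tryptophan, an essential amino acid, is broken down mainly along the kynurenine pathway, which IDO1 and TDO2 open and which leads through kynurenine to NAD. IL4I1 takes another route: it is a secreted oxidase that removes the amino group of phenylalanine, tyrosine and tryptophan, and it is best known from myeloid cells and B cells. Products of both routes can bind the aryl hydrocarbon receptor AHR, a transcription factor that switches on CYP1A1, CYP1B1 and TIPARP, and the kidney tubule is a known site of kynurenine metabolism.

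RNA came from 2 lines of human proximal tubular cells (HPTC): HK-2, immortalised with papillomavirus genes, and RPTEC/TERT1, immortalised with telomerase. All cells, the controls included, were kept at normal glucose and deprived of serum and supplements for 24 h. They were then given 10 ng/mL IL-1β, a pro-inflammatory cytokine, or 500 nM Empa, an inhibitor of the glucose transporter SGLT2, or no ligand, for a further 24 h. Each line and treatment had 2 arrays described as biological duplicates, 12 in all on 4 slides, and each slide held the control, IL-1β and Empa array of one line and replicate number. No array held IL-1β and Empa together. Each line is a single immortalised culture, and in bulk RNA fewer cells of a type and less RNA per cell cannot be told apart.

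Levels are given in signal units, after scaling each array's background-subtracted signal to one 75th percentile. Differences are log2 differences from the control array of the same slide. Before scaling, the 75th percentile of an array lay between 230.007 and 551 signal units, and between 52.7% and 63.1% of the probes were well above background. The keratins KRT8 and KRT18 and EPCAM, 3 of 5 epithelial markers, had signals well above background throughout the 12 arrays. CDH1 reached that level on only 6 arrays, and KRT19 was not counted. Of 13 proximal tubule markers, 7 reached that level on every array, among them LRP2, GGT1, AQP1 and PAX8. SLC22A6 and HNF4A reached it on none and CUBN on 1. Of the 8 leukocyte markers, PTPRC and ITGAX were well above background on all 12 arrays. The sum over the 8 genes ranged from 147 to 582 signal units on control arrays, from 155 to 488 on IL-1β arrays and from 159 to 434 on Empa arrays, and its part in the results was not tested. With IL-1β, LRP2 fell by 2.36 and SLC34A1, which was well above background on only 4 arrays, by 1.18 on the log2 scale, and of the leukocyte markers ITGAX fell by 0.97 (limma adjusted p = 0.00305, 0.0263 and 0.0419 with the replicate block, which is the slide, and 0.307, 0.199 and 0.426 without it). These were 2 of 8 proximal tubule and 1 of 5 leukocyte markers in the fit, beside 2.77% of all genes. The median of the 8 was -0.24. Of them 4 were lower on all 4 slides, while PAX8 (0.53) and SLC22A8 (0.09) had positive means.

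The labels of the slides did not match the resemblance of their arrays. Across 15324 probes, the control array of HK-2 replicate 1 correlated with that of RPTEC/TERT1 replicate 2 at r = 0.984, and HK-2 replicate 2 with RPTEC/TERT1 replicate 1 at r = 0.973. Control arrays that share a line label correlated at 0.880 for HK-2 and 0.875 for RPTEC/TERT1. One label field also names HK-2 for every array, and the line was taken from the titles. Below, every value is therefore given by slide, and "HK-2" and "RPTEC/TERT1" stand for what the titles say.

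The 10 genes differed widely in how many arrays measured them. IL4I1, IDO1, KMO, WARS, AHR, CYP1B1 and TIPARP were well above background on all 12 arrays, CYP1A1 on 5, KYNU on 4 and TDO2 on 1, and no probe was saturated. The 9 genes other than TDO2 entered the fit across 15717 genes. The control signals of IL4I1, KMO, WARS, AHR, CYP1B1 and TIPARP fell into the same pairs of slides as the whole control arrays did: replicate 1 of HK-2 lay with replicate 2 of RPTEC/TERT1, and replicate 2 of HK-2 with replicate 1 of RPTEC/TERT1. Those of IDO1 and CYP1A1 did not.

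**Figure D1:**
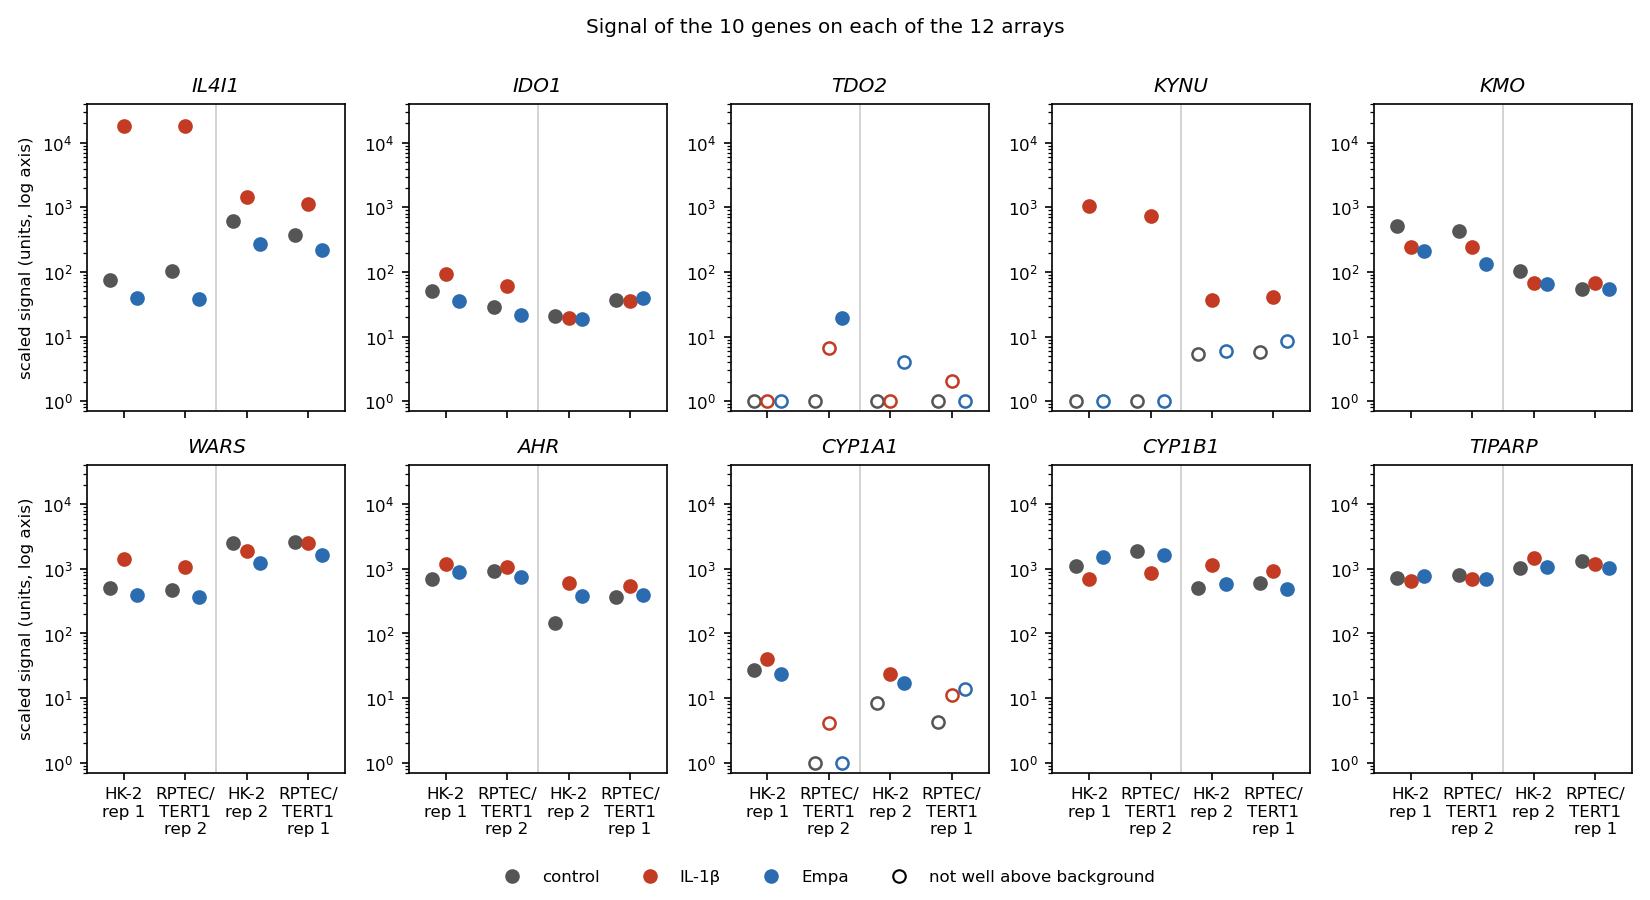
Scaled signal (log axis) of the 10 genes on the 12 arrays, one point per array, with the slides ordered by the resemblance of their control arrays; open points were not well above background and values under 1 are drawn at 1. IL4I1 reached about the same signal on the IL-1β arrays of HK-2 replicate 1 (18079.8) and RPTEC/TERT1 replicate 2 (18257), while WARS on control arrays was higher on the slides to the right of the line.

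IL4I1, the amino acid oxidase, was measured by 1 probe at chr19:50392917-50392976 on the minus strand (hg19). The first 30 of its 60 bases are shown because every IL4I1 value rests on this probe, and below them the 250 bases before the IL4I1 start, from RefSeq (GRCh38.p14, chr19:49929505-49929754, minus strand, 5′ to 3′), in which capitals mark the AHR element core GCGTG, here on the opposite strand.
IL4I1 probe: aaggccagttatctctccaaaacacgaccc
IL4I1 promoter: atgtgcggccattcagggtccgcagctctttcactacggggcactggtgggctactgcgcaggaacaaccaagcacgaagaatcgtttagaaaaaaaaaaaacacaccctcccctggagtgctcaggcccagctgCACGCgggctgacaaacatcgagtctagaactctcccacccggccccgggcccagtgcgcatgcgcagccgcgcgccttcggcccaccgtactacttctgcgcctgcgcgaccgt
The table gives this window as that of NUP62, a nuclear pore gene, as well. The core occurs in 32.2% of 35116 windows of this length, so 1 copy is a description only, and the arrays do not show which start was in use.

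On the control arrays, IL4I1 stood at 74.2 signal units on HK-2 replicate 1, 611 on HK-2 replicate 2, 380.3 on RPTEC/TERT1 replicate 1 and 103 on RPTEC/TERT1 replicate 2. The IL-1β arrays of the same slides gave 18079.8, 1438, 1121 and 18257 signal units. Each IL-1β array was above the control array of its slide, as on all 4 slides for 18.7% of the 15717 genes. The pair of slides with the lower control signals had the higher signals under IL-1β. IL4I1 was thus 244-fold higher on HK-2 replicate 1 and 178-fold higher on RPTEC/TERT1 replicate 2, against 2.35-fold on HK-2 replicate 2 and 2.95-fold on RPTEC/TERT1 replicate 1. The mean log2 difference was 4.55 ± 3.65 (SD, n = 4 slides), a spread almost as large as the mean. The differences on HK-2 replicate 1 and RPTEC/TERT1 replicate 2 were smaller with normexp (6.90 and 6.51) and with the authors' normalized values (5.67 and 6.78), so the size of these folds depends on the background correction and normalization.

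With Empa, IL4I1 gave 39.1 signal units on HK-2 replicate 1, 267 on HK-2 replicate 2, 218 on RPTEC/TERT1 replicate 1 and 38.3 on RPTEC/TERT1 replicate 2. Each value was below the control of its slide, at 0.527-, 0.437-, 0.574- and 0.373-fold, although across slides the Empa and control arrays overlapped. The mean log2 difference was -1.09 ± 0.28 (SD, n = 4), so the size varied far less between slides than it did under IL-1β. On HK-2 replicate 1 the log2 difference of -0.92 became -0.40 with normexp and -0.12 with the authors' normalized values, and on RPTEC/TERT1 replicate 2 that of -1.42 became -0.67 and -0.73. Because the median of all genes on the Empa array of HK-2 replicate 1 lay 0.21 log2 units above its control, and that of HK-2 replicate 2 lay -0.11 from it, the differences relative to these medians were -1.14 and -1.08. Both treatments were set against the same control arrays, and 1.45% of the 15717 genes lay above control under IL-1β but below it under Empa on each of the 4 slides, IL4I1 being the 1 member among them. NUP62, which shares the printed window, had log2 differences of 1.03, 0.21, -0.04 and 0.87 with IL-1β and of 0.58, 0.20, 0.03 and -0.09 with Empa, in the slide order used for IL4I1.

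**Figure D2:**
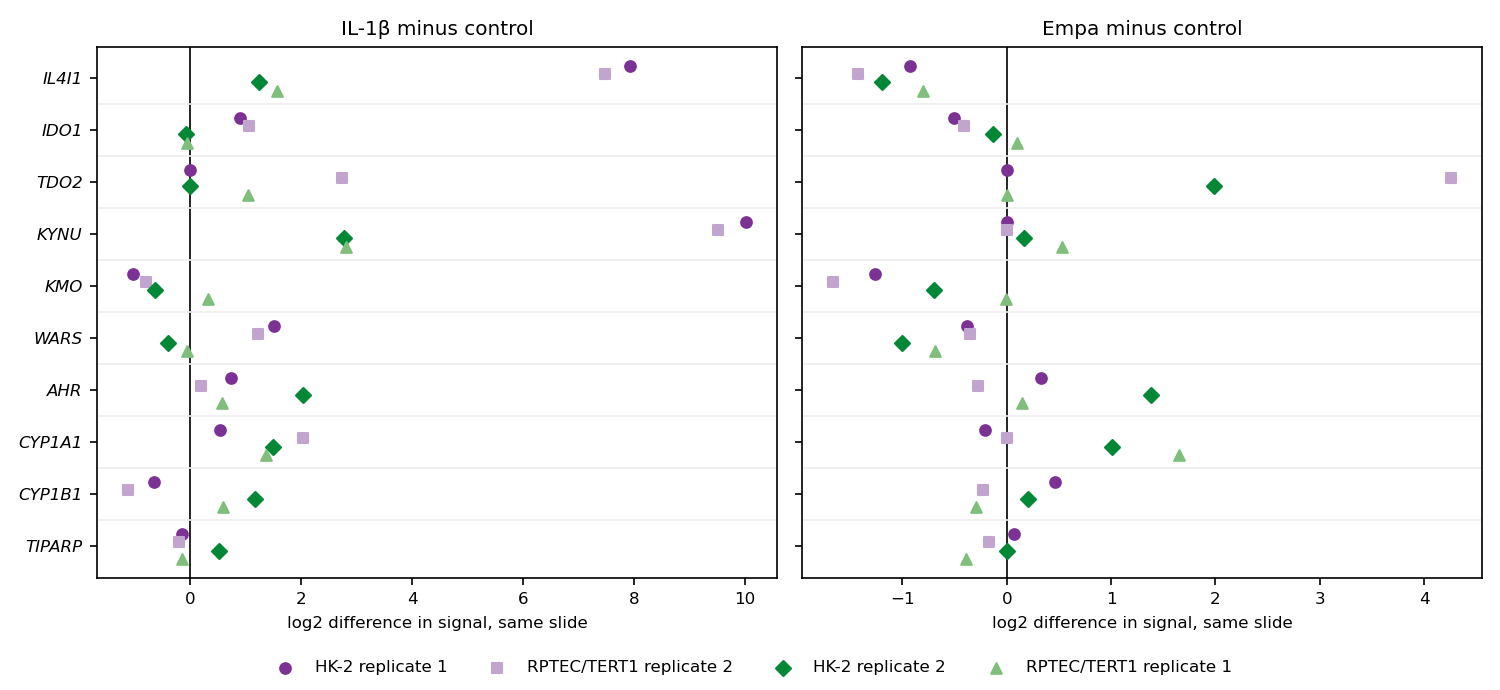
Log2 difference of each IL-1β (left) and Empa (right) array from the control array of its slide for the 10 genes, one symbol per slide; differences of KYNU, CYP1A1 and TDO2 include values at the floor of 1 signal unit and are no measured folds. For IL4I1 the 4 slides lay between 1.23 and 7.93 with IL-1β and between -1.42 and -0.80 with Empa.

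IDO1, the interferon-inducible enzyme that opens the kynurenine pathway, was measured by 1 probe and was dim throughout. Its control signals were 49.96 on HK-2 replicate 1, 20.8 on HK-2 replicate 2, 36.5 on RPTEC/TERT1 replicate 1 and 28.6 on RPTEC/TERT1 replicate 2. On the IL-1β arrays the signals were 93.5, 19.6, 35.1 and 59.8, so IDO1 was higher on the slide pair with the large IL4I1 difference (log2 differences 0.90 and 1.06) and near its control on the other (-0.08 and -0.06). The last pair of signs turned positive under quantile normalization, background correction by normexp and the authors' normalized table. With Empa, IDO1 gave 35.3, 19.0, 39.2 and 21.5 signal units, log2 differences of -0.50, -0.13, 0.10 and -0.41. TDO2, the liver enzyme of the same step, was well above background only on the Empa array of RPTEC/TERT1 replicate 2, at 19.1 signal units, at least 2.52-fold above its control, and no other slide gave a fold.

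KYNU, which cleaves kynurenine and hydroxykynurenine, was well above background on the 4 IL-1β arrays and on no control or Empa array. Its promoter is shown because KYNU was the member whose pattern was most like that of IL4I1 (RefSeq, GRCh38.p14, chr2:142877414-142877663, plus strand, 5′ to 3′), and capitals mark the interferon-γ activated site TTCNNNGAA, present in 6.57% of the windows.
KYNU promoter: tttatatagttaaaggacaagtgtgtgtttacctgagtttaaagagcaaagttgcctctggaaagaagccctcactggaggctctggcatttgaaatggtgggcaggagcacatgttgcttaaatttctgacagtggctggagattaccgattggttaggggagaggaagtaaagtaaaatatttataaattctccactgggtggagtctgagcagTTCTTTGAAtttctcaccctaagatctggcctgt
No AHR element core, interferon regulatory factor element (found in 3.02% of windows) or NF-κB motif was found in this window by the letters searched, and the NF-κB motif, present in 9.96% of windows, was found before AHR alone among the members searched. IDO1 and CYP1B1 were not searched. WARS has one element of each interferon type before 1 of its starts.

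KYNU reached 1044 signal units with IL-1β on HK-2 replicate 1 and 735 on RPTEC/TERT1 replicate 2, against 36.7 on HK-2 replicate 2 and 41.0 on RPTEC/TERT1 replicate 1. Its control signals lay between -1.7 and 5.8 and its Empa signals between -0.3 and 8.4, none of them well above background. Taken against the higher of its own control signal and the lowest signal well above background on the control array, KYNU was at least 160-fold higher on HK-2 replicate 1, at least 96.8-fold on RPTEC/TERT1 replicate 2, at least 4.91-fold on HK-2 replicate 2 and at least 7.02-fold on RPTEC/TERT1 replicate 1. By line label these bounds came to at least 28.0-fold for HK-2 and at least 26.1-fold for RPTEC/TERT1 (n = 2 each). For Empa no fold can be given, since neither array of a slide was above background.

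KMO, which hydroxylates kynurenine, went the other way on most slides. Its control signals were 511 on HK-2 replicate 1, 105 on HK-2 replicate 2, 54.6 on RPTEC/TERT1 replicate 1 and 427 on RPTEC/TERT1 replicate 2. With IL-1β they were 248, 67.5, 68.3 and 244, log2 differences of -1.04, -0.64, 0.32 and -0.81. With Empa they were 213, 65.2, 54.4 and 135, log2 differences of -1.26, -0.69, -0.01 and -1.66, and relative to the median of all genes the RPTEC/TERT1 replicate 1 value was 0.01. The second KMO probe, well above background on 6 arrays, gave positive IL-1β differences of 0.61 on HK-2 replicate 1 and 0.36 on RPTEC/TERT1 replicate 2, so the probes disagreed in direction under IL-1β, and Empa differences of -1.73 and -1.78 on the same slides. On the other slides it was not well above background and gave no fold.

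WARS, the cytosolic enzyme that loads tryptophan onto its tRNA and is induced by interferon-γ, had control signals of 503 on HK-2 replicate 1, 2503 on HK-2 replicate 2, 2637 on RPTEC/TERT1 replicate 1 and 464 on RPTEC/TERT1 replicate 2. With IL-1β the signals were 1432 and 1083 on the slides with low controls, log2 differences of 1.51 and 1.22, and 1885 and 2539 on HK-2 replicate 2 and RPTEC/TERT1 replicate 1, differences of -0.41 and -0.05. The IL-1β arrays therefore lay closer together than the control arrays. With Empa, WARS gave 388, 1248, 1642 and 363 on HK-2 replicates 1 and 2 and RPTEC/TERT1 replicates 1 and 2, each below its control (log2 differences -0.38, -1.004, -0.68 and -0.35), and it was lower on all 4 slides under every scaling tried.

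AHR, the receptor itself, had control signals of 708.8 on HK-2 replicate 1, 148 on HK-2 replicate 2, 362 on RPTEC/TERT1 replicate 1 and 923 on RPTEC/TERT1 replicate 2. With IL-1β the signals were 1172, 607, 539 and 1059, each above its control, by 1.65-, 4.11-, 1.49- and 1.15-fold, and the mean log2 difference was 0.88 ± 0.80 (SD, n = 4). The second AHR probe was higher on all 4 slides as well (mean 0.67). With Empa AHR gave 888, 384, 400.4 and 761, and the log2 differences of 0.32, 1.38, 0.15 and -0.28 had no common direction. On HK-2 replicate 1 the other probe gave -0.78 instead.

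CYP1A1, the detoxifying P450 enzyme most used as a readout of AHR, was well above background on the 3 arrays of HK-2 replicate 1 and on the IL-1β and Empa arrays of HK-2 replicate 2. Its promoter and that of TIPARP are shown because both are AHR targets (RefSeq, GRCh38.p14, 5′ to 3′): CYP1A1 at chr15:74725529-74725778, minus strand, with 1 core element, and the first TIPARP start at chr3:156674340-156674589, plus strand, with 2, capitals marking GCGTG on either strand.
CYP1A1 promoter: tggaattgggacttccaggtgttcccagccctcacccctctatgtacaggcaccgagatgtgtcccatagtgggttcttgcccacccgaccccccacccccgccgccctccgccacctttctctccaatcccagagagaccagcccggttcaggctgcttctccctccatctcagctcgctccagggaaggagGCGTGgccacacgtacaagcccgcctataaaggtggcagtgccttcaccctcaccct
TIPARP promoter: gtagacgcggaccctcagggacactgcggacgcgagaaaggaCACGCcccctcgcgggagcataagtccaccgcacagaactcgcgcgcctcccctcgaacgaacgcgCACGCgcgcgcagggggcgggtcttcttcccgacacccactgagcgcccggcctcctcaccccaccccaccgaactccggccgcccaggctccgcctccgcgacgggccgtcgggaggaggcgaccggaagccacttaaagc
The cores that IL4I1 and WARS carry before a start have the same letters, and none was found before KYNU, KMO, TDO2 or AHR.

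The CYP1A1 signals on HK-2 replicate 1 were 27.6 for control, 39.7 for IL-1β and 23.8 for Empa, 1.44-fold and 0.864-fold. On HK-2 replicate 2 they were 8.5, 23.7 and 17.0, at least 2.80-fold higher with IL-1β and at least 2.01-fold higher with Empa. On the RPTEC/TERT1 slides the signals lay between 0.6 and 13.6 and gave no fold. CYP1A1 was therefore near the lower limit of measurement on every array.

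CYP1B1, a related P450 enzyme, was bright on all arrays and changed sign between the slide pairs under IL-1β. Its control signals were 1095 on HK-2 replicate 1, 510.3 on HK-2 replicate 2, 605 on RPTEC/TERT1 replicate 1 and 1894 on RPTEC/TERT1 replicate 2, and with IL-1β they were 696, 1148, 912 and 869.9. The log2 differences were -0.65, 1.17, 0.59 and -1.12, and the second probe gave the same 4 signs. With Empa the signals were 1507, 589, 492 and 1621.5, log2 differences of 0.46, 0.21, -0.30 and -0.22. The second probe was below its control on all 4 slides (-1.11, -0.13, -0.17 and -0.24), so the probes disagreed on the HK-2 slides. TIPARP, which ADP-ribosylates AHR and dampens it, stayed near its control on most slides. Its control signals were 733, 1049, 1340.0 and 796 in the same slide order, its IL-1β signals 660.1, 1491, 1210.2 and 691.5, and its Empa signals 771, 1052, 1020.8 and 708.9. The log2 differences lay between -0.20 and 0.51 with IL-1β and between -0.39 and 0.07 with Empa. The second TIPARP probe was above background on 0 arrays.

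Counted over the members, 4 of the 9 in the fit were higher with IL-1β on all 4 slides, IL4I1, KYNU, AHR and CYP1A1, beside 18.7% of all 15717 genes, and 0 were lower, beside 20.1%. With Empa 0 were higher on all 4 slides, beside 13.3%, and IL4I1, KMO and WARS were lower, beside 12.2%. The counts for CYP1A1 and KYNU include arrays within background, and KYNU entered the fit through its IL-1β arrays alone. KMO was no longer lower on all 4 slides with quantile normalization, normexp or the authors' values. In limma, IL-1β against control over both lines called 0.0445% of genes and 0 of 9 members. With the slide, that is the replicate number within a line, as a block, 2.38% of genes were called higher and 2.77% lower, again with 0 members. With 1 effect per treatment and the slide as a block, 5.36% were called higher, IL4I1, KYNU and CYP1A1 among them, and 6.22% lower, with 0 members. The IL-1β differences were in view when the genes were chosen, so nothing is read from these counts. For Empa limma called 0 genes with or without the block (1377 and 208 at an unadjusted p under 0.05), and with 1 effect per treatment and the slide as a block 0.00636% higher and 0 lower, with 0 members.

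The difference between the labelled lines was not used to choose the genes and was tested in limma. Without a ligand, IL4I1 differed by -0.11 ± 1.87 log2 units (SE; RPTEC/TERT1 minus HK-2), with a limma adjusted p of 1 for each of the 9 genes. The IL-1β effect on IL4I1 differed between the lines by -0.06 ± 2.64 and the Empa effect by -0.05 ± 2.64 (SE), again with limma adjusted p of 1 for all 9 genes, and between 0.999 and 1 with the block. These standard errors leave room for large differences. Each label covers 1 slide of each resembling pair, so the contrast averages over the pairs and cannot settle whether the lines differ. Control signals instead followed the slide pairs. On HK-2 replicate 2 and RPTEC/TERT1 replicate 1, IL4I1 was 5.52-fold and WARS 5.32-fold higher than on the other pair, whereas KMO was 6.15-fold, AHR 3.50-fold and CYP1B1 2.59-fold lower. As the pairs were seen in the same arrays, no test is given for them.

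Other genes of the pathways were read from the limma fit over all 15717 genes. Their lists, like the members, were chosen with earlier results of these data known. The counts and adjusted p-values of the lists are therefore a description. Of 77 genes on 9 lists, 50 were in the fit. Without the block 0 of the 50 passed for IL-1β. With it, 6 rose and 3 fell, beside 2.38% and 2.77% of all genes. These 9 calls rested on few arrays: in the blocked fit 0 passed without the control array of HK-2 replicate 2, 1 without that of RPTEC/TERT1 replicate 2, 2 without that of HK-2 replicate 1, 4 without the IL-1β array of HK-2 replicate 1, 6 without the control array of RPTEC/TERT1 replicate 1 or the IL-1β array of RPTEC/TERT1 replicate 2, and 8 or 9 without any other array, with the direction of each gene kept. For Empa 0 passed in either fit, and 3 were higher and 8 lower on all 4 slides, beside 13.3% and 12.2%. In what follows adjusted p-values are limma's, with the block unless stated, and the median of all genes was -0.03 for IL-1β and 0.01 for Empa.

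Among the 8 other kynurenine pathway enzymes measured, 1 fell and 0 rose with IL-1β, and the list's median difference was -0.13. ACMSD, which diverts the pathway away from NAD, fell by 3.105 on the log2 scale (SD 0.72, n = 4; limma adjusted p = 0.0319, and 0.140 without the block) and was well above background on 9 arrays. Its differences were -3.86 on HK-2 replicate 1, -2.53 on HK-2 replicate 2, -2.45 on RPTEC/TERT1 replicate 1 and -3.57 on RPTEC/TERT1 replicate 2. They varied less between slides than those of IL4I1, but were larger on the same pair of slides. With Empa ACMSD was lower on all 4 slides as well (mean -2.04 ± 1.13 SD; limma adjusted p = 0.544). For either treatment, an ACMSD difference that involves an array within background is no measured fold. AADAT, which makes kynurenic acid, had a mean of -1.08 with IL-1β (limma adjusted p = 0.141). QPRT, which forms the first nucleotide on the way to NAD, had a mean of 0.64 with IL-1β and of -0.63 with Empa, lower on 4 of 4 slides in the latter. IDO2 was not in the fit.

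Of 5 genes of NAD synthesis and nicotinamide use, NAMPT, the rate-limiting enzyme of NAD salvage, rose with IL-1β on all 4 slides (1.72, 3.14, 1.33 and 1.99; mean 2.05; limma adjusted p = 0.0102, and 0.0857 without the block). NMNAT3, the mitochondrial enzyme of NAD formation, had a mean of -2.30 (limma adjusted p = 0.00767, and 0.0807 without the block). It was well above background on only 5 arrays, with signals between 2.7 and 29.0. That mean therefore includes arrays within background and is no measured fold. The other genes of the list, NAPRT, NMNAT1 and NADSYN1, did not pass.

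None of the 7 genes of tryptophan uptake and charging passed. SLC16A10, an aromatic amino acid transporter, was higher with IL-1β on all 4 slides (mean 3.17; limma adjusted p = 0.0751) and with Empa (mean 1.74; limma adjusted p = 0.586), but was well above background on only 4 arrays. SLC36A4, another tryptophan carrier, had a mean of 1.12 with IL-1β. SLC7A5 and SLC3A2, the parts of the main carrier of large neutral amino acids, had Empa means of -0.88 and -0.32, both lower on 4 of 4 slides, with limma adjusted p of 0.570 and 0.660.

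Of the serotonin route only MAOA was in the fit (IL-1β mean -0.81, limma adjusted p = 0.301), and the enzymes that open it, TPH1 and TPH2, were not. Of 3 genes of phenylalanine and tyrosine breakdown, whose substrates IL4I1 shares, HGD fell by 1.25 with IL-1β, with a spread of only 0.13 between slides (SD, n = 4; limma adjusted p = 0.0163 with the block and 1 without it).

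None of the 6 partners of AHR passed. ARNT2, a relative of the dimer partner ARNT, was lower with IL-1β on all slides (mean -0.80; limma adjusted p = 0.0679), while HSP90AA1, a chaperone of the receptor, was higher (mean 0.38). AHRR, its repressor, was not in the fit. None of 5 further AHR target genes passed either, and their median was 0.08. UGT1A6, which conjugates phenols, followed the slide pairs, with IL-1β differences of 2.94 on HK-2 replicate 1, -0.88 on HK-2 replicate 2, -0.33 on RPTEC/TERT1 replicate 1 and 3.19 on RPTEC/TERT1 replicate 2. NQO1, a quinone reductase, had a mean of 0.08.

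Genes of the interferon-γ response had a median IL-1β difference of 1.30 over 8 genes in the fit, 2 of which rose. IFNGR1, a receptor chain, had a mean of 2.07 (limma adjusted p = 0.0170). GBP1, an interferon-induced GTPase named after its value was seen, had a mean of 1.28 (limma adjusted p = 0.0312). GBP2 (mean 2.14) and IRF1 (mean 1.76) were higher on all 4 slides without passing. CXCL9 and CXCL10 were not in the fit. Of 7 genes of the NF-κB response, the main route of IL-1 signalling, 3 rose and the median was 3.77. NFKBIA, the inhibitor that NF-κB induces, had a mean of 3.77 (limma adjusted p = 0.0103), CXCL8, a neutrophil chemokine, 7.10 (limma adjusted p = 0.0240) and SOD2, a mitochondrial superoxide dismutase, 4.39 (limma adjusted p = 0.0189), while BIRC3 missed at 3.77 (limma adjusted p = 0.0634).

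**Figure D3:**
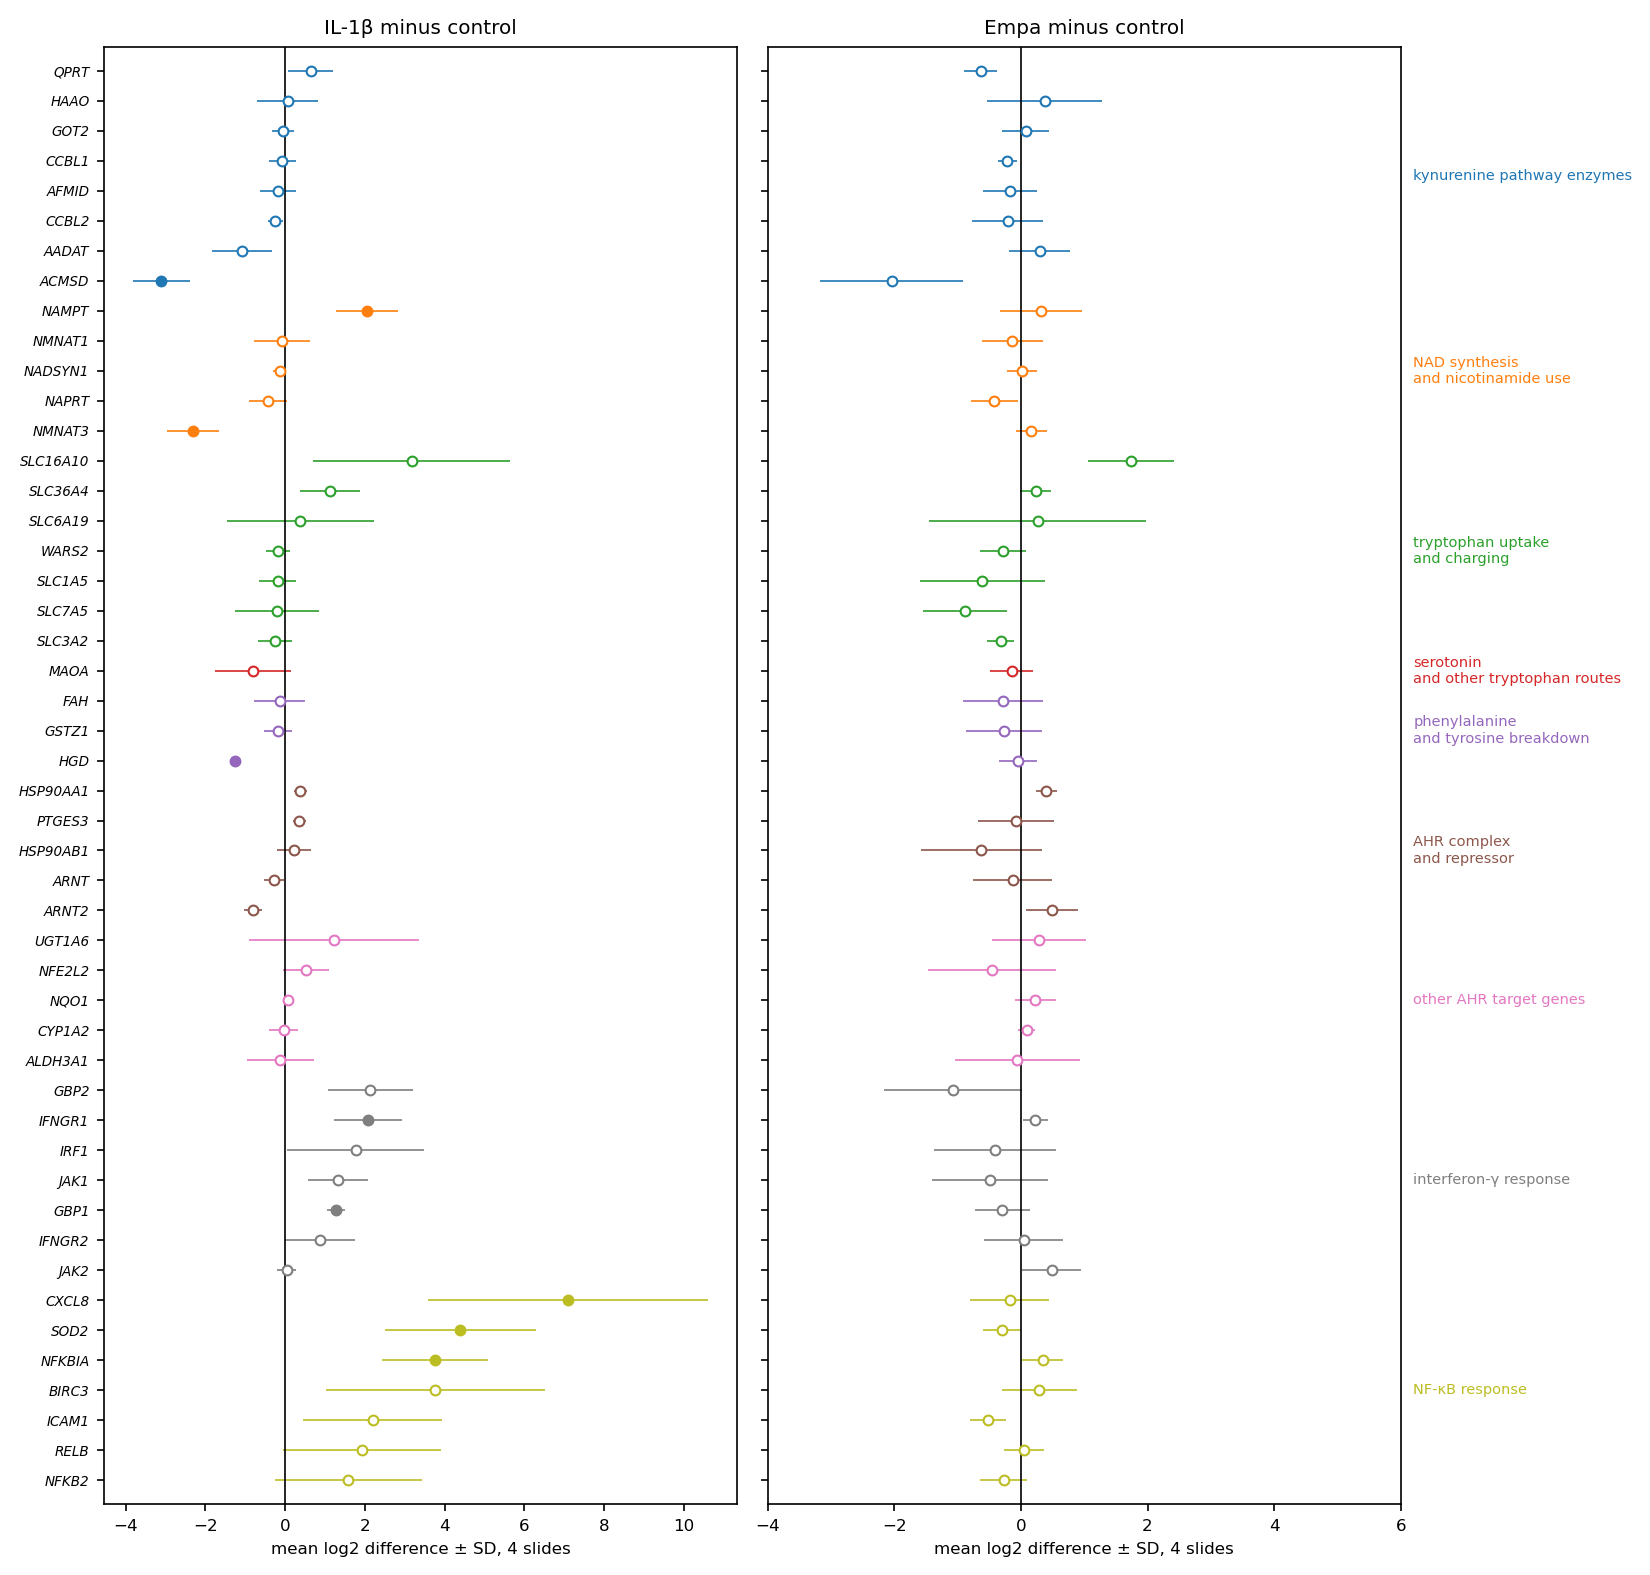
Mean log2 difference ± SD over the 4 slides for further pathway genes in the fit, with IL-1β (left) and Empa (right), coloured by list; filled points passed a limma adjusted p of 0.05 with the replicate block. For IL-1β 9 genes are filled, from ACMSD (-3.105) to CXCL8 (7.10), and for Empa 0 are.

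The genes whose pattern over the 12 arrays was most like that of IL4I1, by Pearson's r of log2 signals centred on each slide, were ICAM1, a leukocyte adhesion molecule (r = 0.999), EBI3, a cytokine subunit (r = 0.998), SERPINA1, a protease inhibitor (r = 0.998), LCN2, an iron-binding marker of tubular injury (r = 0.997), and VNN2, a pantetheinase (r = 0.995), out of 15716. All 5 had IL-1β differences above 0 and Empa differences below 0 on each slide. They were picked for their likeness to IL4I1, so these shared signs are no separate result. LCN2 had the widest range, 11.93 on HK-2 replicate 1, 2.77 on HK-2 replicate 2, 2.95 on RPTEC/TERT1 replicate 1 and 11.15 on RPTEC/TERT1 replicate 2 with IL-1β. Among the members KYNU came first (r = 0.983, rank 43), followed by IDO1 (0.935, rank 406) and WARS (0.933, rank 432). KYNU was within background on every control and Empa array, so its r rests mainly on its IL-1β arrays. CYP1A1 (0.644), AHR (0.394), KMO (0.004), TIPARP (-0.144) and CYP1B1 (-0.522) were less like it. These correlations are a description over 12 arrays that share slides and 4 controls.

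**Figure D4:**
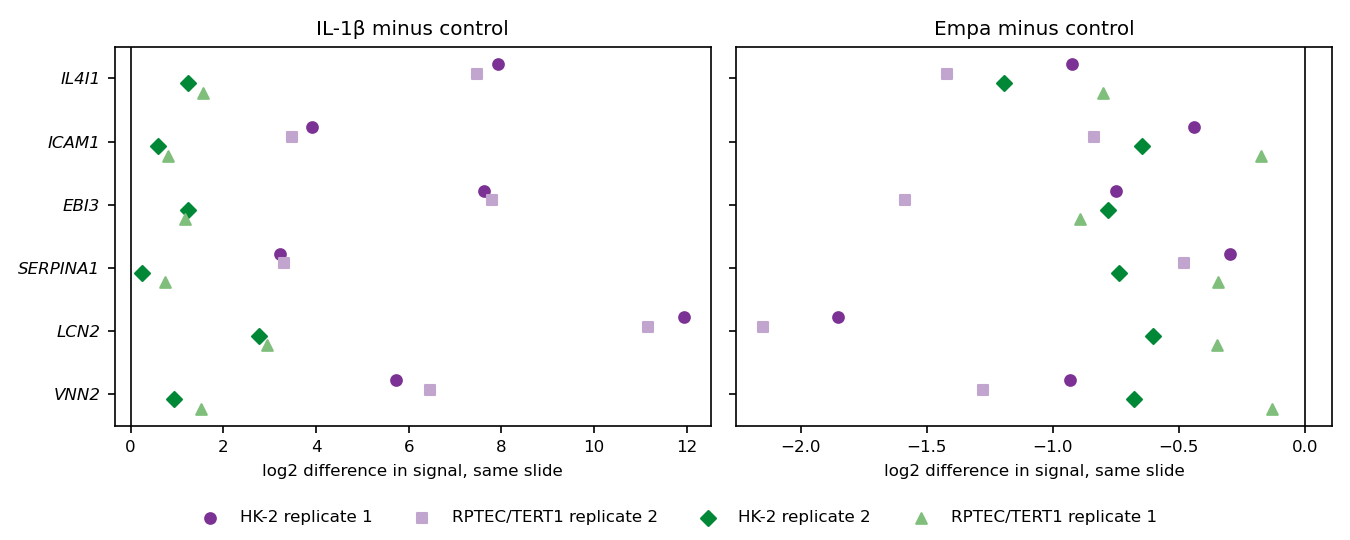
Log2 difference from the control array of the same slide for IL4I1 and the 5 genes whose pattern was most like it, with IL-1β (left) and Empa (right), one symbol per slide. The purple slides, HK-2 replicate 1 and RPTEC/TERT1 replicate 2, lay above the green ones for each gene with IL-1β, as for LCN2 (11.93 and 11.15 against 2.77 and 2.95).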

How the data were processed

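Gene expression was measured on 12 one-color Agilent arrays, 2 for each of 6 groups, assigned by sample titles. The authors deposited spot intensities that Feature Extraction 9.5.3.1 had corrected for background and spatial trend, without scaling between arrays. A second deposited table holds the authors' log2 values, described as quantile-normalized, and was used only as an alternative. Here, control spots and outliers were dropped and repeated spots averaged per probe. Signals were divided by the array's 75th percentile, brought to a common level of 292 signal units, raised to at least 1 signal unit and put on the log2 scale. One probe per gene was kept, the brightest of those that cleared the background in both arrays of 1 or more groups, so a gene could enter through the group in which it was high. limma 3.58.1 (R 4.3.3; lmFit, eBayes) was fitted to 6 groups without a block, with Benjamini-Hochberg adjustment over 15717 genes and a threshold of 0.05. Scripts also used Python 3.11.15, pandas 2.3.3 and matplotlib 3.10.9. limma was tested on simulated data.

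Replicate numbers are slide numbers within a line. The replicate block of the treatment effects is therefore the slide, fitted with a separate effect of each treatment in each line. Arrays sharing a slide deviated together from their group means (r between 0.592 and 0.906), so blocked results are given where they change a call. With 2 arrays per group, such a deviation reflects the difference between the 2 slides of a label. A slide effect and the mismatch between labels and resemblance therefore cannot be told apart. The 2 slides of each replicate number share a scan day. The members and lists were chosen with earlier results of these data known. Genes were named by a rule: all members, from each list the up to 4 genes with the largest mean IL-1β difference and the up to 2 with the largest Empa difference, and the 5 genes most like IL4I1. Probe positions are those of the array annotation (hg19), which was not used to assign exons or untranslated regions. Promoters are from RefSeq (GRCh38.p14). A fold against an array not well above background is a bound, "at least", set by the higher of the dim probe's own signal and the lowest signal well above background on that array. A quotient under 1 was not given. Alternatives were the block, scan day, quantile normalization, normexp, the authors' table, a floor of 5, other filters, other probes, kept outliers and each array or slide left out. Some genes of the lists are not reported here by name. The number of arrays limits the precision.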

Additional observations from a re-analysis of the deposited data

Results flagged for a closer look

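CYP1B1 and TIPARP stood out because the arrays of one line moved one way with Empa and those of the other line the opposite way. CYP1B1 was higher with Empa on both HK-2 slides (0.46 and 0.21) and lower on both RPTEC/TERT1 slides (-0.30 and -0.22), a difference between the lines of -0.60 log2 units (RPTEC/TERT1 minus HK-2; limma adjusted p = 1 for the difference itself, and 0.999 with the block). Its second probe was lower on all 4 slides. TIPARP differed between the lines by -0.32 (limma adjusted p = 1, and 0.999 with the block), from 0.07 and 0.00 on the HK-2 slides to -0.39 and -0.17 on the RPTEC/TERT1 slides. On HK-2 replicate 2 the TIPARP difference was only 0.005, so TIPARP stayed at its control there. Relative to the median of all genes, the value of HK-2 replicate 1 was -0.14, so the lines no longer had opposite signs for TIPARP. With normexp and with the authors' normalized values, TIPARP was lower on all 4 slides.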

How the results depend on the processing

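The count of genes called for IL-1β against control (7 in limma without a block) depended on the setting. With the slide as a block it was 809 when each line had its own treatment effects, and 1820 with 1 effect per treatment. With scan day as a block, which is the replicate number across both lines, it was 0 (1052 at an unadjusted p under 0.05). It was 12 with normexp, 3 with the authors' normalized values and 17 with a floor of 5 signal units. Without a filter on dim probes it was 27, and with probes well above background on all 12 arrays 3. Leaving out 1 array at a time gave between 0 and 7, and 0 without any one of the 4 control arrays or the IL-1β array of RPTEC/TERT1 replicate 2 (673 to 1156 unadjusted). By the methods' t-test, 0 genes passed in either line (608 and 421 unadjusted). For Empa, limma called 0 genes under every setting except 1 effect per treatment with the slide as a block, which called 1. Without the filter, the differences between lines called 4 genes for the IL-1β effect, 1 for the Empa effect and 4 for the control level, and 0 otherwise. The pairing by slide changed the calls for 9 further pathway genes and 3 marker genes. Leaving out 1 array at a time from the blocked fit, added after seeing the data, called between 72 and 1138 genes and between 0 and 9 of those 9.

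The mean Empa difference of IL4I1 was -0.71 with normexp and -0.68 with the authors' table, and between -1.18 and -0.97 when 1 slide was left out. Its mean IL-1β difference lay between 3.42 and 5.65 when 1 slide was left out. KYNU, near background on control arrays, had a mean IL-1β difference of 2.06 with normexp and 1.64 with the authors' table, and CYP1A1 0.17 and 0.15. The second probe of CYP1B1 gave -0.41 for Empa. Those of KMO and TIPARP were within background on 2 or more slides and give no mean. The cause was not tested. The remaining settings moved the members' means by less than the spread between slides. The 2 arrays per group, and signals near background for TDO2, KYNU and CYP1A1, limit the precision.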
